A study of Homo sapiens with 9 samples.

Results

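The nuclear receptors are a family of transcription factors, and 44 of their genes were followed here in HEK293 cells, an established human embryonic kidney line. The rule took every probe set whose annotated symbol is a family member, leaving out NR1D1 and NR1D2, and used no measured value. The members were chosen with earlier results of these data known. Of the 44 genes, 33 had a probe set of their own among 22011 probe sets, 4 (THRA, PPARA, NR2C1 and NR4A2) were read only by probe sets that also carry another gene, and 7 (NR1H2, NR1H4, NR1I2, HNF4A, NR2F2, NR4A3 and NR0B1) were not analysed here. All cells were HEK293 in DMEM with serum, and the labels list no receptor ligand. They were transfected with stealth siRNAs labelled siDBC1, against DBC1, siZNF326, against ZNF326 (also called ZIRD), or siCTR, the control, and RNA was taken after 48 h. Each group held 3 arrays from what the design calls independent experiments, 9 arrays in all, and each probe set had 1 log2 value on each array. The gene for DBC1 is named CCAR2 on current maps, and its product joins ZNF326 in the DBIRD complex, which links RNA polymerase II to messenger RNA particles. The comparisons ask which transcripts differ after either siRNA.

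Most nuclear receptors carry a zinc finger domain that binds short repeated motifs in DNA and a domain that binds a small fat-soluble ligand such as a steroid, thyroid hormone, retinoic acid or a fatty acid. Without ligand many of them hold corepressors with histone deacetylases, and with ligand they exchange these for coactivators with histone acetyltransferases. The CCAR2 protein binds several of these receptors, among them oestrogen and retinoic acid receptors, and inhibits the deacetylase SIRT1. An array reads transcripts and does not measure receptor proteins or their activity.

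The knockdown was seen for one of the siRNAs. CCAR2 stood at 6.50, 6.54 and 6.65 in siDBC1 and at 7.67, 7.67 and 7.84 in siCTR on the log2 scale. It fell by 1.16 (SE 0.079, adjusted p = 0.0116 in limma), and the groups did not overlap. That call was lost without siDBC1 replicate 1 (adjusted p = 0.122), siDBC1 replicate 2 (0.0544), siZNF326 replicate 3 (0.0629) or siCTR replicate 2 (0.0843), without both arrays that stood apart (0.146), and with the 2 groups alone in the fit (0.253), while the difference itself stayed between −1.21 and −1.11. CCAR2 read 8.01, 7.95 and 7.99 in the arrays labelled siZNF326, 0.26 from siCTR (adjusted p = 0.377). ZNF326 read 6.12, 5.56 and 5.81 in the arrays labelled siZNF326 and 5.25, 5.64 and 5.76 in siCTR, a difference of 0.28 (SE 0.39, adjusted p = 0.851). In siDBC1 it read 6.24, 5.64 and 7.32, which overlapped both other groups, and siZNF326 differed from siDBC1 by −0.57 (adjusted p = 0.769). The ZNF326 transcript was not lower than in siCTR in the arrays named for it, so siZNF326 is used below as a label. Array medians ran from 5.58 to 5.90, and correlations between arrays across probe sets ran from 0.953 to 0.988. A pair of arrays stood apart: siDBC1 replicate 2 had the lowest value of the 9 for 33.5% of all probe sets and for 14 of the 33 receptors, and siZNF326 replicate 1 had the highest for 25.3% of all and for 16 of the 33. In siDBC1 replicate 3 the value was the highest for 19.2% of all and for 4 of the 33, with an array median of 5.89. That array was left out alone but never together with the pair. Of 11 markers listed for HEK293, 10 were measured and 8 lay above the array median on all 9 arrays (means of 5.67 to 10.46 over the 10). Of 21 markers of blood, liver, endothelium, fibroblasts and differentiated nephron, 17 were measured with means of 1.73 to 6.59, and 1, the fibroblast collagen COL1A1, lay above the median on all 9. On at least 1 array 4 of the 17 did so, among them SLC34A1 of the nephron and APOA1 of the liver on 8 each. These averaged 6.0 and 5.89, and the HEK293 markers PAX2 and LHX1 averaged 6.0, so the lists overlapped in level. PTPRC, the marker of blood cells, had the lowest mean of the 17, 1.73.

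The first question is which receptors gave a signal at all. Mean values of the 33 receptors ran from 2.68 to 7.90, with a median of 5.57. Probe sets differ in how strongly they bind, so these values place a receptor within the array's own distribution and do not rank transcript amounts. Above the array median on all 9 arrays were 12 receptors: THRB, PPARD, NR1H3, RXRA, RXRB, NR2C2, NR2F1, NR2F6, ESRRA, NR3C1, NR4A1 and NR6A1. On some arrays 5 did so (RARA, RARB, RARG, PPARG and RORB), and 16 did so on none. As a yardstick for low levels, the 220 probe sets of olfactory receptors had a 95th percentile between 4.60 and 5.19 on the 9 arrays. That percentile was exceeded on every array by 17 receptors, on some arrays by 9 and on none by 7.

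The 7 that never exceeded it were the oestrogen receptors ESR1 and ESR2, the progesterone receptor PGR, the xenobiotic receptor NR1I3, the retinoid X receptor RXRG, the photoreceptor factor NR2E3 and NR0B2, a small receptor without a DNA-binding domain. PGR read 2.69, 2.77 and 2.69 in siDBC1, 2.46, 2.69 and 2.69 in the arrays labelled siZNF326 and 2.69, 2.69 and 2.77 in siCTR. The same value, 2.69, came up on 6 of its 9 arrays. ESR1 ran from 4.20 to 4.62 over the 9 arrays with all 3 groups overlapping, and ESR2, NR1I3 and PGR lay below the lower quartile of every array. Repeated values were found at low and at high level: 14 of the 33 receptors, NR2F6 and THRB among them, had an identical value on at least 3 arrays, against 23.7% of all probe sets, and NR2E1 read 4.86 on 7 of 9. Detection values were not used here, so whether these transcripts are absent cannot be said, and a missing difference in them says little.

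**Figure D1:**
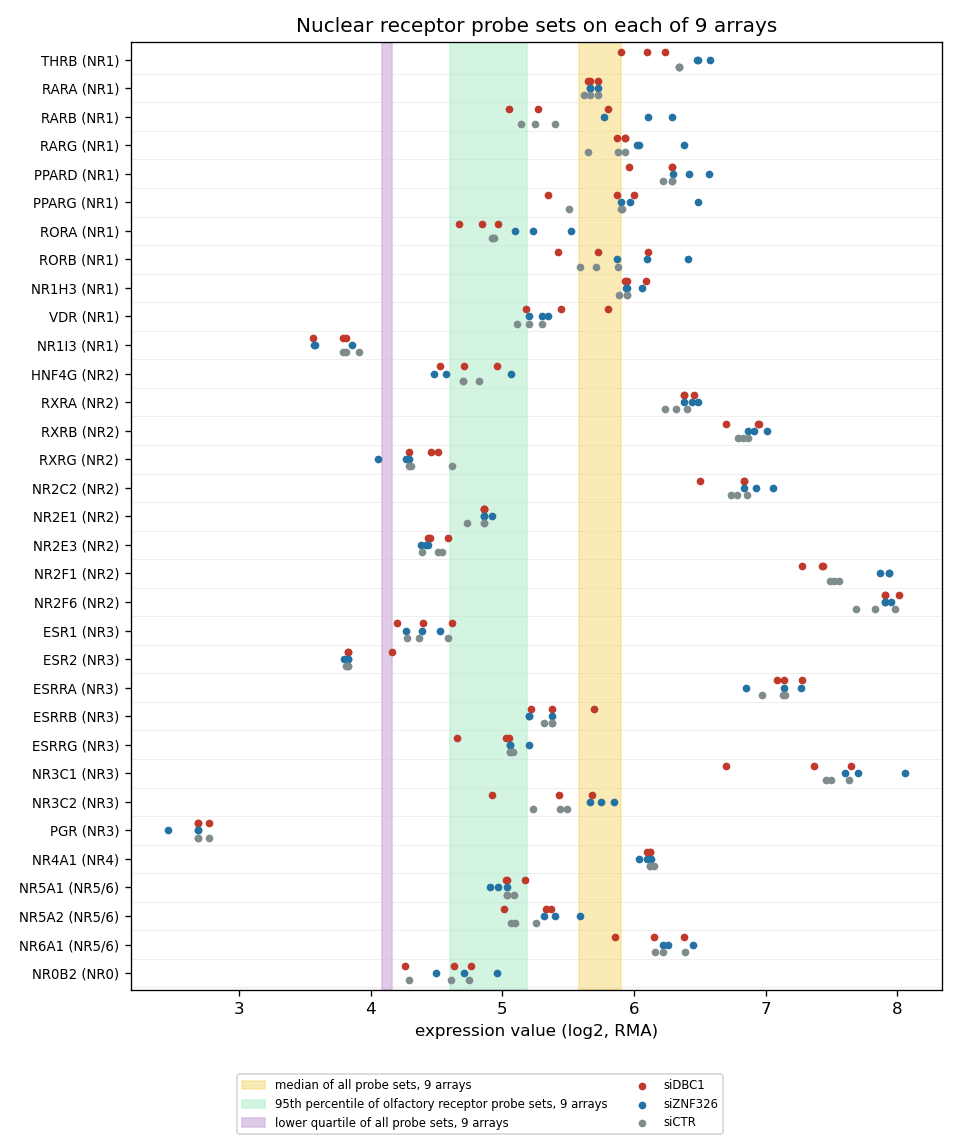
Expression values (log2, RMA) of the 33 nuclear receptors with a probe set of their own. Each point is 1 array (siDBC1, siZNF326 and siCTR, 3 arrays each), and shaded bands span the lower quartile and the median of all probe sets and the 95th percentile of olfactory receptor probe sets over the 9 arrays. The probe set of PGR lies lowest, at 2.46 to 2.77, and those of NR2F6, NR2F1 and NR3C1 lie farthest right.

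No receptor passed the test in any of the 3 comparisons. In limma with adjustment over all 22011 probe sets, 0 of 33 were called in siDBC1 against siCTR, where the share called among all probe sets was 0.0363%. In the arrays labelled siZNF326 against siCTR 0 of 33 were called, with 0.15% of all, and between siZNF326 and siDBC1 0 of 33, with 0.00909% of all. At shares this low fewer than 1 receptor would be counted even if the family were like the rest of the array. The lowest adjusted p among receptors was 0.735 in siDBC1 against siCTR, 0.124 in siZNF326 against siCTR and 0.189 between siZNF326 and siDBC1.

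The intervals say more than the missing calls. On the log2 scale the differences of siDBC1 from siCTR lay between −0.29 and 0.27. Those of the arrays labelled siZNF326 lay between −0.20 and 0.79. For siDBC1 the 95% interval of the difference lay within a 1.5-fold change either way for 30 of the 33 receptors and within 2-fold for all 33. For siZNF326 these counts were 25 and 32, the exception at 2-fold being RARB. All these counts include the 16 receptors never above the array median, among them the 7 never above the olfactory yardstick. For a probe set with little signal a narrow interval says little about the transcript. An interval reached 0.15 to 0.55 to either side of its difference, with a median of 0.26. Less RNA per cell and fewer cells that express a gene cannot be told apart in these bulk samples.

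At an unadjusted p under 0.05, 1 receptor of 33 (3.03%, THRB, lower) was counted in siDBC1 against siCTR, beside 6.18% of all probe sets. In siZNF326 against siCTR there were 5 (15.2%, all of them higher: NR2F1, RARB, RORA, RARG and NR5A2), beside 8.65% of all. Between siZNF326 and siDBC1 there were 4 (12.1%, higher in siZNF326: NR2F1, THRB, RORA and RARB), beside 7.31% of all. The counts moved with single arrays. Without siZNF326 replicate 1 the 5 became 2, NR2F1 and RARB, and without siCTR replicate 1 or 2 they became 3. Without siDBC1 replicate 3 the 4 became 9. In siDBC1 against siCTR the 1 became 0 without siDBC1 replicate 1 or any of the 3 siCTR arrays. Without both arrays that stood apart the counts were 2, 5 and 5.

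Receptors were also counted where the groups did not overlap. All 3 siDBC1 arrays lay below all 3 siCTR arrays for 3 receptors (9.09%: THRB, NR2F1 and ESRRG), against 3.66% of all probe sets, and above them for 0, against 5.18%. Arrays labelled siZNF326 lay above siCTR for 8 receptors (24.2%: NR2F1, RARB, RORA, RARG, NR5A2, THRB, PPARD and NR3C2), against 12.9% of all, and below for 0, against 5.27%. They lay above siDBC1 for 6 (18.2%: NR2F1, THRB, RORA, RARG, PPARD and ESRRG), against 5.21%, and below for 0, against 4.24%. The 2 siRNAs share the siCTR arrays, so their lists are not independent of each other.

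A direction of the family as a whole depended on the scaling of the arrays. In the deposited values 23 of 33 receptors (69.7%) were higher in siZNF326 than in siCTR, with a median difference of 0.079, but after quantile normalization 15 were higher with a median of −0.011, and with arrays centred on their medians 15 with −0.013. Over all probe sets 56.6% were higher in the deposited values, 42.1% after quantile normalization and 40.4% after centring, with medians of 0.032, −0.039 and −0.059. In the deposited values the share also went with level: of the 12 receptors above the median of every array 11 were higher in siZNF326, beside 66.4% of the 9396 probe sets of that level, and of the 16 never above it 7 were higher, beside 45.8% of 9443. In siDBC1 17 receptors were higher and 16 lower, with a median of 0.010 beside 0.014 for all probe sets, and the median was −0.0041 after centring. The 6 receptors with an unadjusted p under 0.05 kept their direction under both rescalings. They had been picked for their differences, so a kept sign says little. In siZNF326 against siCTR quantile normalization cut the 5 at this threshold to 2, dropping NR2F1, RARG and NR5A2. Centring cut them to 3. Between siZNF326 and siDBC1 the 4 rose to 6 higher under either rescaling, and centring added 2 lower. In siDBC1 against siCTR the 1 lower became 2 under quantile normalization, beside 1 higher, and centring gave 1 either way.

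**Figure D2:**
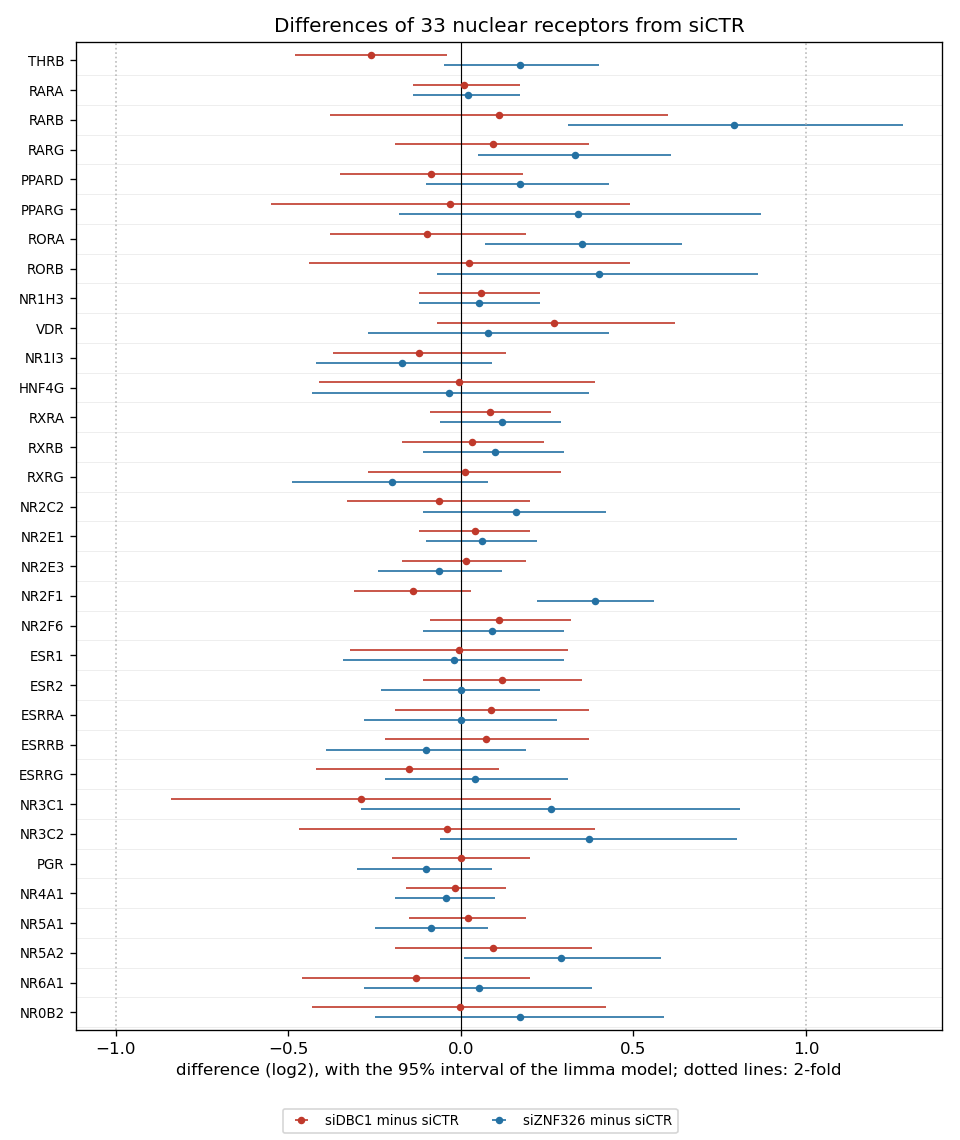
Differences (log2) of 33 nuclear receptors from siCTR, in siDBC1 and in the arrays labelled siZNF326, with 95% intervals from the limma model. Intervals that leave out 0 are those of THRB in siDBC1 and of RARB, RARG, RORA, NR2F1 and NR5A2 in siZNF326, none of which passed after adjustment, and the interval of RARB alone crosses the 2-fold line.

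NR2F1, an orphan receptor of the COUP-TF group, had the lowest adjusted p of the 33 receptors in siZNF326 against siCTR and against siDBC1. It represses or activates genes in the developing nervous system and has no settled natural ligand. NR2F1 read 7.43, 7.28 and 7.44 in siDBC1, 7.87, 7.94 and 7.94 in the arrays labelled siZNF326 and 7.49, 7.52 and 7.56 in siCTR. All siZNF326 arrays lay above all others, and all siDBC1 arrays below all siCTR arrays. The difference between siZNF326 and siCTR was 0.39 (SE 0.074, 95% interval 0.22 to 0.56, adjusted p = 0.124), or 1.31-fold. Against siDBC1 it was 0.53 (interval 0.36 to 0.70, adjusted p = 0.189), and siDBC1 differed from siCTR by −0.14 (adjusted p = 0.905). The difference from siCTR was 0.26 after quantile normalization, adjusted p ran from 0.0725 to 0.559 over 16 alternatives, and it stayed at 0.42 without siZNF326 replicate 1 and siDBC1 replicate 2. NR2F6, the other member of the group measured, read 8.01, 7.91 and 7.91 in siDBC1, 7.91, 7.95 and 7.91 in siZNF326 and 7.69, 7.83 and 7.98 in siCTR, where all groups overlapped (adjusted p = 0.956 and 0.788 against siCTR).

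Retinoic acid receptors bind all-trans retinoic acid and work as partners of retinoid X receptors. RARB, whose gene is itself switched on by retinoic acid, read 5.27, 5.05 and 5.80 in siDBC1, 6.29, 5.77 and 6.11 in the arrays labelled siZNF326 and 5.25, 5.14 and 5.40 in siCTR. The siZNF326 arrays lay above all siCTR arrays, while siDBC1 replicate 3 lay above the lowest of them. The difference between siZNF326 and siCTR was 0.79 (SE 0.21, interval 0.31 to 1.28, adjusted p = 0.310), or 1.73-fold, the largest of any receptor in these comparisons. Over the alternatives it ran from 0.68 to 0.94, with adjusted p from 0.106 to 0.749. RARG, the receptor of skin and cartilage, read 5.87, 5.93 and 5.93 in siDBC1, 6.38, 6.02 and 6.04 in siZNF326 and 5.65, 5.88 and 5.93 in siCTR. Its siZNF326 arrays lay above both other groups, and replicate 1 lay farthest out. The difference from siCTR was 0.33 (adjusted p = 0.506), and 0.21 without siZNF326 replicate 1. RARA, the third receptor of the group, stayed between 5.62 and 5.73 on all 9 arrays, with differences from siCTR of 0.010 in siDBC1 and 0.020 in siZNF326.

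The upstream sequence of RARB is shown because a retinoic acid response element there is a textbook case of a repeated receptor motif, and RARB had the largest difference. Among 35116 RefSeq windows on GRCh38.p14, each from 250 bases before to 50 bases after a gene start, the letters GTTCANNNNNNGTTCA (both strands read, N for any base) were found in 20, or 0.057%. Those letters follow the spelling of the known RARB element, so a match at RARB was settled by their choice. Repeats spelled otherwise were not searched. Among 93 windows of 39 of the family's genes the letters were found in 1, that of a RARB start, 52 bases before it. The bases before that start are chr3:25428013-25428262 on the plus strand, with the matching letters in capitals.
RARB: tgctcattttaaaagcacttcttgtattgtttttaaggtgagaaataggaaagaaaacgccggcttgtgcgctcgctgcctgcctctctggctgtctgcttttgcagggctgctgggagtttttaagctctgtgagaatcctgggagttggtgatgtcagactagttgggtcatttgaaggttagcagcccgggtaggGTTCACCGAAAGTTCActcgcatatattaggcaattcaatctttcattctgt
The other 3 RARB windows, and those of THRB, RARG, RORA, NR2F1 and NR5A2, did not hold these letters, 12 windows in all for the 6 genes. The core motif of many receptors, AGGTCA, was found on either strand in 13.8% of all windows and in 17.2% of the family's 93. Among those 12 windows it was in 1 of RARB, 52 bases before the start (chr3:25340723-25340782, plus strand), and in 1 of NR5A2, 84 bases before it (chr1:200027599-200027658, plus strand), shown with the motif in capitals. The matches of the 2 motifs lay in different windows and did not overlap.
RARB, second start: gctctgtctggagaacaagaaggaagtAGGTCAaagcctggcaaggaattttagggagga
NR5A2: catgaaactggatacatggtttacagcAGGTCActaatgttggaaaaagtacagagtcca
A match of letters is a description and not evidence of a bound site. The array gave 1 value for the whole gene, so transcripts from the 4 RARB starts cannot be told apart.

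Retinoid X receptors, the common partners that pair with many receptors of this family, did not differ beyond their spread. RXRA read 6.46, 6.38 and 6.38 in siDBC1, 6.49, 6.44 and 6.38 in siZNF326 and 6.24, 6.32 and 6.40 in siCTR. RXRB read 6.94, 6.70 and 6.95 in siDBC1, 7.01, 6.91 and 6.87 in siZNF326 and 6.83, 6.79 and 6.87 in siCTR. The groups overlapped for both, and the 95% intervals of the differences from siCTR stayed between −0.17 and 0.30. RXRG, at 4.06 to 4.62, stayed under the yardstick.

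THRB, a receptor of thyroid hormone, went in opposite directions under the 2 siRNAs without passing in either. It read 6.10, 5.90 and 6.24 in siDBC1, 6.58, 6.49 and 6.48 in the arrays labelled siZNF326 and 6.34 on each of the 3 siCTR arrays. None of the groups overlapped. The difference between siDBC1 and siCTR was −0.26 (SE 0.095, interval −0.48 to −0.04, adjusted p = 0.735), and −0.17 without siDBC1 replicate 2. Between siZNF326 and siCTR it was 0.17 (adjusted p = 0.652), and between siZNF326 and siDBC1 0.44 (interval 0.22 to 0.66, adjusted p = 0.414). Identical values on all 3 control arrays give THRB no measured spread in that group, so its standard error rests on the other arrays and on the model's prior. The other receptor of thyroid hormone, THRA, shares its probe sets with NR1D1, which lies on the opposite strand of the same locus. These read 6.75 to 7.13 and 6.12 to 6.21 over the 9 arrays, and neither differed from siCTR at an unadjusted p under 0.05.

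Retinoid-related orphan receptors take part in the circadian clock and in the development of the cerebellum and immune cells. RORA read 4.85, 4.67 and 4.97 in siDBC1, 5.52, 5.23 and 5.10 in the arrays labelled siZNF326 and 4.94, 4.92 and 4.93 in siCTR. The siZNF326 arrays lay above both other groups, but all 9 values were below their array's median. The difference between siZNF326 and siCTR was 0.35 (SE 0.12, adjusted p = 0.457), and 0.24 without siZNF326 replicate 1. RORB, a receptor of retina and brain, read 5.73, 5.42 and 6.11 in siDBC1, 6.41, 6.10 and 5.87 in siZNF326 and 5.59, 5.71 and 5.88 in siCTR. Its groups overlapped (difference between siZNF326 and siCTR 0.40, interval −0.07 to 0.86, adjusted p = 0.633).

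Receptors of fatty acids, sterols and vitamin D showed no difference that passed. PPARD, which drives fatty acid oxidation, read 6.29, 5.96 and 6.29 in siDBC1, 6.57, 6.30 and 6.42 in siZNF326 and 6.29, 6.22 and 6.29 in siCTR. Its siZNF326 arrays lay just above those of siCTR (0.17, adjusted p = 0.712). PPARG, the regulator of fat cell formation, read 5.87, 5.35 and 6.0 in siDBC1, 6.49, 5.90 and 5.97 in siZNF326 and 5.90, 5.51 and 5.91 in siCTR, with the highest value in siZNF326 replicate 1 and the lowest in siDBC1 replicate 2. NR1H3, the sterol sensor LXR alpha, read 5.95, 5.93 and 6.09 in siDBC1, 6.06, 5.95 and 5.94 in siZNF326 and 5.89, 5.95 and 5.95 in siCTR. Its groups overlapped, and the intervals of both differences from siCTR lay between −0.12 and 0.23. VDR, the vitamin D receptor, read 5.45, 5.18 and 5.80 in siDBC1, 5.35, 5.30 and 5.20 in siZNF326 and 5.11, 5.30 and 5.20 in siCTR. Its siDBC1 mean differed from siCTR by 0.27 (interval −0.07 to 0.62, adjusted p = 0.911), the upper end of the range in that comparison, and the groups overlapped. PPARA, the fatty acid receptor of the liver, shares both of its probe sets with CDPF1, and neither differed at an unadjusted p under 0.05.

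Among the steroid receptors and their relatives, NR3C1 and ESRRA gave the clearest signal. NR3C1, the glucocorticoid receptor, read 7.37, 6.70 and 7.65 in siDBC1, 8.06, 7.60 and 7.70 in siZNF326 and 7.50, 7.46 and 7.63 in siCTR. The groups overlapped, the outer values were those of the pair of arrays that stood apart, and the range over the 9 arrays, 1.37, was the widest of the 33 receptors. Differences from siCTR were −0.29 in siDBC1 (interval −0.84 to 0.26, adjusted p = 0.958) and 0.26 in siZNF326 (interval −0.29 to 0.81, adjusted p = 0.779). NR3C2, the mineralocorticoid receptor, read 5.43, 4.92 and 5.68 in siDBC1, 5.85, 5.67 and 5.75 in siZNF326 and 5.44, 5.23 and 5.49 in siCTR, where the siZNF326 arrays lay above siCTR (0.37, interval −0.06 to 0.80, adjusted p = 0.626). ESRRA, an orphan regulator of mitochondrial genes, read 7.14, 7.28 and 7.09 in siDBC1, 7.27, 7.14 and 6.85 in siZNF326 and 7.13, 6.97 and 7.15 in siCTR. No group of ESRRA stood apart (differences from siCTR of 0.087 and 0.0016). ESRRG, its relative in heart and kidney, read 5.05, 4.66 and 5.03 in siDBC1, 5.20, 5.06 and 5.06 in siZNF326 and 5.06, 5.06 and 5.08 in siCTR, with a difference of −0.15 between siDBC1 and siCTR (adjusted p = 0.955).

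NR5A2, also called LRH-1, a regulator of early embryonic and liver genes, read 5.33, 5.01 and 5.37 in siDBC1, 5.40, 5.59 and 5.32 in the arrays labelled siZNF326 and 5.07, 5.10 and 5.26 in siCTR. Its siZNF326 arrays lay above siCTR and overlapped siDBC1 (difference from siCTR 0.29, interval 0.01 to 0.58, adjusted p = 0.565). NR6A1, a receptor of germ cells and early embryos, read 6.15, 5.86 and 6.38 in siDBC1, 6.45, 6.26 and 6.22 in siZNF326 and 6.22, 6.16 and 6.39 in siCTR, with all groups overlapping. NR4A1, an immediate early gene, read 6.10, 6.12 and 6.12 in siDBC1, 6.10, 6.13 and 6.04 in siZNF326 and 6.12, 6.12 and 6.15 in siCTR. The groups of NR4A1 overlapped closely, and both intervals against siCTR lay between −0.19 and 0.13. NR2C2, the testicular receptor TR4, read 6.84, 6.50 and 6.84 in siDBC1, 7.06, 6.84 and 6.93 in siZNF326 and 6.78, 6.74 and 6.86 in siCTR, also overlapping. The remaining receptors, HNF4G, ESRRB, NR2E1 and NR5A1, had means between 4.73 and 5.35 and differed from siCTR by at most 0.10 either way in both comparisons. None of the 7 shared probe sets that hold a member passed in any comparison.

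**Figure D3:**
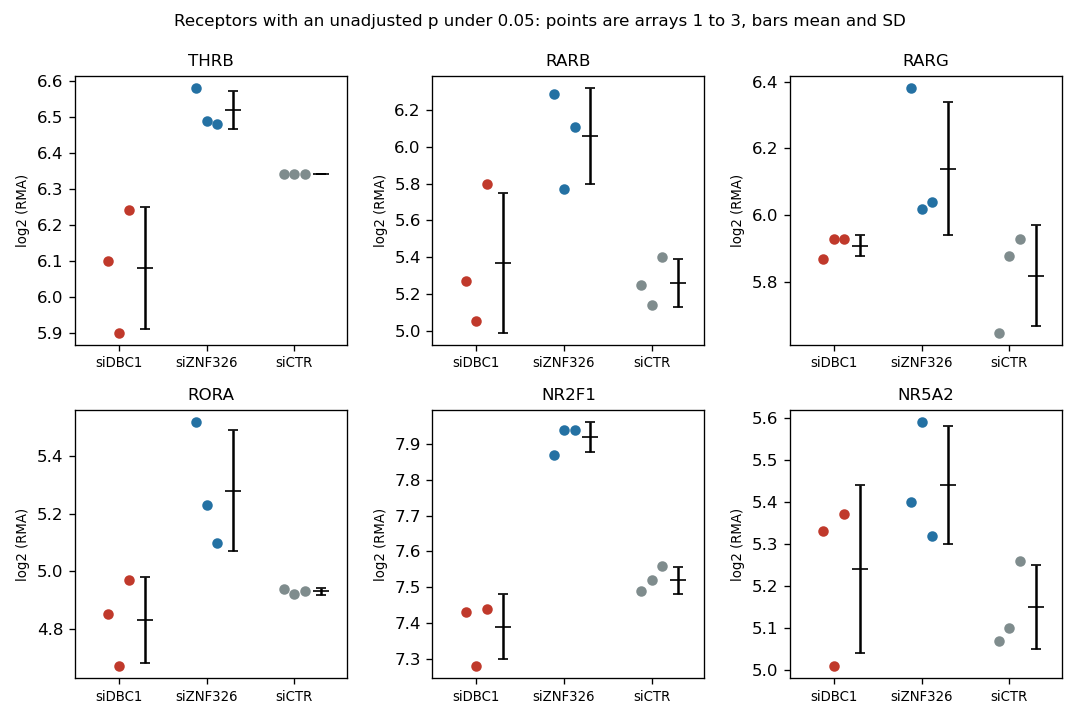
Values (log2, RMA) on each array of the 6 receptors with an unadjusted p under 0.05 in at least 1 comparison, for siDBC1, siZNF326 and siCTR. Points are replicates 1 to 3 from left to right and bars give the mean and SD (n = 3), on axes that differ between panels. NR2F1 keeps its 3 groups apart with the siZNF326 arrays highest, and in RARG and RORA siZNF326 replicate 1 lies above the rest.

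Coregulators carry out what receptors direct, and CCAR2 is listed with the coactivators. The coregulators, receptor targets and enzymes of ligand metabolism made 10 lists with 150 genes, of which 125 were measured. In siDBC1 1 of the 125 passed, CCAR2 itself, and at an unadjusted p under 0.05 4 were higher and 7 lower (8.8%). In the arrays labelled siZNF326 0 passed against siCTR, with 16 higher and 4 lower at an unadjusted p under 0.05 (16%). Between siZNF326 and siDBC1 1 passed, CCAR2 (1.42, adjusted p = 0.00311), a call lost without siZNF326 replicate 3 (0.0511), without both arrays that stood apart (0.116) and with the 2 groups alone in the fit (0.0841). In this comparison 11 were higher and 2 lower at an unadjusted p under 0.05 (10.4%). The shares for all probe sets at that threshold are those given above, 6.18%, 8.65% and 7.31%.

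Coactivators were measured for 24 of 27 genes and corepressors for 14 of 20. In siDBC1 10 of the coactivators and 7 of the corepressors lay above siCTR, with medians of −0.0081 and −0.0061. In siZNF326 21 and 10 lay above, with a median of 0.19 in both lists against 0.032 for all probe sets. Mean levels in these lists ran from 5.21 to 9.32, and the probe sets above the median of every array had a median of 0.09, with 66.4% higher. These medians kept their sign at 0.069 and 0.060 after quantile normalization and at 0.10 and 0.10 after centring. Above siCTR were then 16 and 18 of the 24 coactivators, and 9 of the 14 corepressors under either rescaling. The HEK293 markers moved with them: 9 of 10 lay above siCTR in siZNF326, with a median of 0.18 (0.072 after quantile normalization and 0.085 after centring), and its part in the coregulators' difference was not tested. CCAR1, the paralog of CCAR2 and a coactivator with the Mediator complex, differed by 0.20 in siDBC1 and 0.38 in siZNF326 (adjusted p = 0.985 and 0.733). SIRT1 differed by −0.055 and 0.22 (adjusted p = 0.999 and 0.811).

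Within the corepressor list 2 genes stood farthest from siCTR for their spread. HDAC3, the deacetylase of the corepressor complex that silences receptors without ligand, read 8.39, 8.06 and 8.56 in siDBC1, 8.90, 8.71 and 8.87 in the arrays labelled siZNF326 and 8.11, 8.07 and 8.14 in siCTR. TBL1X, a subunit of the same complex that helps exchange corepressors for coactivators, read 7.73, 7.39 and 7.79 in siDBC1, 7.57, 7.39 and 7.24 in siZNF326 and 8.11, 8.15 and 8.47 in siCTR. All siZNF326 arrays lay above siCTR for HDAC3 and below siCTR for TBL1X, as did all siDBC1 arrays for TBL1X. Neither passed in the deposited values (HDAC3 0.72 and TBL1X −0.84 in siZNF326, each with adjusted p = 0.109), but both did after quantile normalization (adjusted p = 0.0296 and 0.00577) and after centring (0.0366 and 0.0117). KAT2B, a histone acetyltransferase among the coactivators, read 6.56, 6.12 and 7.11 in siDBC1, 7.84, 7.21 and 7.35 in siZNF326 and 6.44, 6.03 and 6.58 in siCTR, a difference of 1.11 between siZNF326 and siCTR (SE 0.28, adjusted p = 0.280).

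Target lists of the receptors held members on both sides of siCTR. The 7 lists had medians between −0.014 and 0.044 in siDBC1 and between −0.025 and 0.076 in siZNF326, with 0 members called in either, and the 5 medians above 0 in siZNF326 were below 0 after quantile normalization and after centring. STC2, a secreted glycoprotein listed as an oestrogen receptor target, had the largest difference among the targets named. It read 6.92, 6.29 and 6.80 in siDBC1, 6.66, 6.68 and 6.60 in siZNF326, and 7.84, 7.54 and 8.02 in siCTR. Both siRNAs lay below all siCTR arrays, by −1.13 in siDBC1 (adjusted p = 0.172) and −1.15 in siZNF326 (adjusted p = 0.0798), and both differences passed after quantile normalization (adjusted p = 0.0215 and 0.00731). XBP1, from the same list, differed by −0.63 and −0.46 (adjusted p = 0.553 and 0.526). The siZNF326 difference of XBP1 passed after quantile normalization (adjusted p = 0.0395) but not after centring (adjusted p = 0.138). STC2 and XBP1 are also known as genes of cellular stress responses, and the ESR1 probe set stayed under the yardstick. Why STC2 and XBP1 differed was not tested.

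TSC22D3, a glucocorticoid-induced leucine zipper protein, read 8.08, 7.68 and 8.24 in siDBC1, 8.94, 8.74 and 8.55 in siZNF326 and 8.78, 8.85 and 8.92 in siCTR. The siDBC1 arrays lay below both other groups, by −0.85 against siCTR (adjusted p = 0.281, and 0.0115 after quantile normalization). SGK1, a kinase of the same list, read 5.59, 5.42 and 5.84 in siDBC1, 6.01, 5.64 and 5.82 in siZNF326 and 5.37, 4.96 and 5.18 in siCTR, with differences of 0.45 and 0.65 (adjusted p = 0.708 and 0.252). Both SGK1 groups lay above siCTR, so the 2 genes lay on different sides of siCTR in siDBC1. ABCA1, the cholesterol exporter induced by LXR, differed by 0.30 and 0.71 (adjusted p = 0.925 and 0.258), and SCD, a fatty acid desaturase, by −0.58 and −0.021 (adjusted p = 0.806 and 0.987), the siDBC1 difference being −0.34 without siDBC1 replicate 2. The fatty acid carriers and lipid droplet genes FABP3 and PLIN2, listed for PPAR and ERR, differed in siZNF326 by 0.61 and 0.39 (adjusted p = 0.318 and 0.338). Levels were low for 2 of these genes: ABCA1 exceeded the olfactory yardstick on 4 of 9 arrays and FABP3 on 5, and neither exceeded the array median on any.

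Retinoid genes are of interest beside RARB. CYP26A1, which breaks down retinoic acid and is its classical target, read 4.46, 4.53 and 4.50 in siDBC1, 4.46, 4.44 and 4.58 in siZNF326 and 4.01, 4.46 and 4.18 in siCTR, always under the olfactory yardstick. Its differences from siCTR were 0.28 in siDBC1 and 0.27 in siZNF326 (adjusted p = 0.793 and 0.565 in limma). DHRS3, a retinal reductase, differed by −0.066 in siDBC1 and 0.24 in siZNF326 (adjusted p = 0.992 and 0.588). The median of the 11 measured retinoic acid targets was −0.025 in siZNF326, with 4 of 11 higher. ALDH1A2, which makes retinoic acid, read 7.67, 7.37 and 8.01 in siDBC1, 8.21, 7.90 and 7.75 in siZNF326 and 7.25, 7.39 and 7.60 in siCTR, a difference of 0.54 in siZNF326 (adjusted p = 0.470). RDH11, a retinol dehydrogenase, differed by 0.014 in siDBC1 and 0.49 in siZNF326 (adjusted p = 0.999 and 0.481). Neither enzyme passed, and the 19 measured genes of ligand synthesis and inactivation had medians of 0.039 and 0.0064. Among targets of thyroid hormone, vitamin D and xenobiotic receptors, CA2, S100G, ABCB1 and SLC51B differed in siZNF326 by 0.24, −0.60, 0.51 and 0.038, with adjusted p from 0.481 to 0.985, and S100G lay below the lower quartile of every array. SLC51B lay below the lower quartile on 8 of 9 arrays and never exceeded the yardstick.

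**Figure D4:**
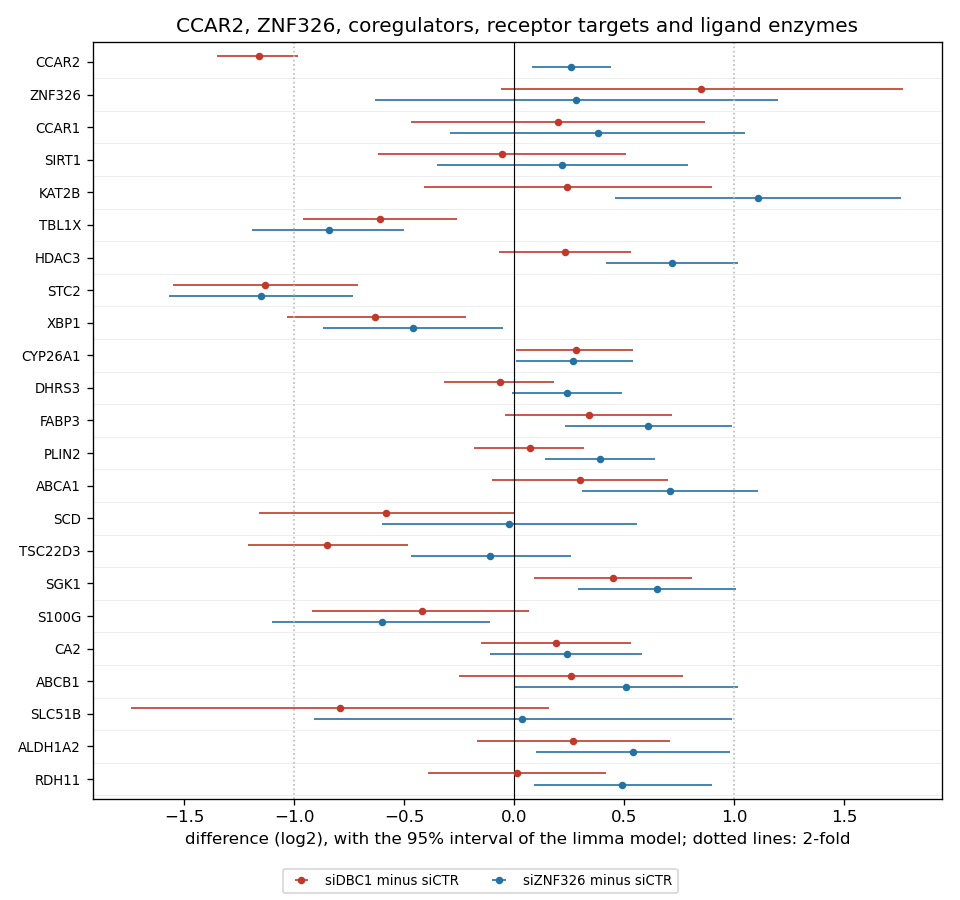
Differences (log2) from siCTR of CCAR2, ZNF326 and the named coregulators, receptor targets and ligand enzymes in siDBC1 and in the arrays labelled siZNF326, with 95% intervals from the limma model. CCAR2 in siDBC1, at −1.16, is the single difference shown that passed in the deposited values, and STC2 lies near the 2-fold line on the lower side under both siRNAs.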

How the data were processed

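The deposited values are log2 expression values, 1 per probe set and array, that the authors made with RMA on build hg18, per the submitters' processing notes. The software version was not given in the sources used here. Per the labels' protocols, the RNA was DNase-treated, cleared of ribosomal RNA and hybridised to whole-transcript arrays of Affymetrix. All 9 value columns were mapped to samples by title. Of 22011 probe sets 14432 carried 1 symbol, 2408 several and 5171 none. Each of the 33 receptors with 1 symbol had 1 such probe set, and all 33 matched a current RefSeq gene ID. All probe sets entered 1 linear model of the 3 groups in limma (version 3.58.1, R 4.3.3, lmFit then eBayes), without filter, two-sided, adjusted by Benjamini and Hochberg within each comparison, with calls at an adjusted p under 0.05. The fit was also run on simulated arrays with independent noise and known changes, to see whether it returned their size. Those arrays held no array-wide shifts such as those of the pair of arrays that stood apart. P values set each difference against the spread between these arrays, moderated by the model's prior. The number of arrays limits the precision.

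The members and lists were chosen with earlier results of these data known. Values on every array are given for receptors with an unadjusted p under 0.05 in any comparison and for lead receptors above the array medians. Other genes named are those called, the 2 with the smallest p per list, and CCAR2, ZNF326, CCAR1 and SIRT1. PPARG, RORB, NR3C2, ESRRG, VDR and PGR were added after their values were seen. Alternatives were quantile normalization, centring, fits of 2 groups, a replicate block, a trended prior, probe sets above the median level and each array left out. Promoter windows and their letters come from RefSeq on GRCh38.p14.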

Additional observations from a re-analysis of the deposited data

How the results depend on the processing

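No receptor was called under any of the 17 alternatives in any of the 3 comparisons. With no adjustment, limma counted at p under 0.05 between 0 and 3 receptors in siDBC1 against siCTR, 2 to 7 in siZNF326 against siCTR and 3 to 9 between siZNF326 and siDBC1. The 10 receptor differences with an unadjusted p under 0.05 kept their direction under every alternative run. Calls over all probe sets were less stable. In siDBC1 against siCTR the 8 became 69 after quantile normalization, 46 after centring, 4 with a trended prior, 1 without siDBC1 replicate 2 and siZNF326 replicate 1, and 0 to 4 with 1 array left out (924 to 1995 with p under 0.05 before adjustment in limma), the 0 without siDBC1 replicate 1, siZNF326 replicate 3 or siCTR replicate 2. In siZNF326 against siCTR the 33 became 196 after quantile normalization, 119 after centring, 68 among probe sets above the median level, 8 without those 2 arrays, and 1 to 64 with 1 array left out, with siDBC1 replicate 2 removed giving 64, siDBC1 replicate 3 giving 26 and each of the other 7 giving 1 to 3. Between siZNF326 and siDBC1 the 2 became 28, 9 and, without the 2 arrays, 0 (1497 with no adjustment), and 0 to 1 with 1 array left out, the 0 without siZNF326 replicate 3 (1290). With the 2 groups alone in the fit the counts were 0, 5 and 0 (1100, 2844 and 1118 with p under 0.05 before adjustment in limma). The cause was not tested. Samples with the same number did not deviate together in every pair (correlations of 0.0243 to 0.255 for siDBC1 with siCTR, −0.181 to 0.0958 for siZNF326 with siCTR and −0.296 to 0.395 for siZNF326 with siDBC1). With the replicate block limma called 0, 1 and 0 probe sets (1360, 2007 and 1769 before adjustment), and CCAR2 was no longer called in siDBC1 against siCTR (adjusted p = 0.103) or between siZNF326 and siDBC1 (adjusted p = 0.0576). The yardstick for low levels mattered: 17 receptors exceeded the olfactory percentile on all 9 arrays, 12 the array median and 29 the lower quartile. Averaging probe sets of a symbol gave nothing new, since each receptor had 1. The alternative without 2 arrays, the count with shared probe sets and those for other genes were chosen after seeing the data.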
